A study of Mus musculus with 19 samples.

Results

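The basement membrane around brain capillaries and the collagens that can surround it are encoded by a compact group of genes. The 61 genes described here were taken by name: collagen and laminin chain genes, together with Nid1, Nid2, Hspg2, Agrn, Sparc, Sparcl1, Lox, Fn1 and Timp3, each with a row of its own on the array. They are 61 of 65956 tested rows, with 1 row per gene. By known function they were divided into 20 basement membrane genes, 11 fibrillar collagens, 2 basement membrane zone collagens, 9 fibril-associated collagens, 5 beaded filament collagens, 4 transmembrane collagens, 3 short network collagens, 2 other collagens and 5 glycoproteins and modifiers. Col7a1 and Col6a4 were left out because their rows are shared with another gene.

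A capillary basement membrane is a thin sheet secreted mainly by endothelial cells, pericytes and astrocytes. Heterotrimers of collagen IV and of laminin each build a network, nidogens and the heparan sulfate proteoglycans perlecan and agrin join the networks, and integrins and dystroglycan hold the cells to the sheet. Fibrillar collagens such as collagens I and III belong instead to the stroma made by fibroblasts, which in brain lie along larger vessels and in the meninges.

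The study asked how social defeat changes gene expression in brain endothelial cells, and the microarrays cover 19 samples in 5 groups of male wild-type C57BL/6N mice aged 8 to 10 weeks. The stressed mice lived beside an aggressive CD-1 male behind a partition that was removed once a day, for 1 day (CSD1, animals 4, 18 and 19), 7 days (CSD7, animals 9, 16, 17 and 25) or 14 days (CSD14, animals 12 to 15). A recovery group had 14 days of defeat followed by 7 days without it (CSDrec, animals 28 to 31), and home cage mice lived in pairs across a fixed partition (HC, animals 1, 2, 5 and 6). The daily encounter lasted 10 min according to the labels of the CSD1, CSD7 and CSD14 samples and 5 min according to the methods, and HC animal 5 carries a diet label of stressed although its title and source say home cage. Stressed mice were chosen for behaviour scored as susceptible to stress, except that mice defeated on a single day were not scored, so this choice does not apply to CSD1. Brain without cerebellum, brainstem and meninges was digested, and living CD31+ cells were sorted, with RNA of 1 sorted sample on each array. In CSD1, CSD7 and CSD14 the brains were taken 16 h after the last defeat. The label numbers are used as animal numbers, and the sources used here do not say whether brains were pooled, so p-values measure the spread between these samples.

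Values are log2 intensities as deposited, in which 1 unit is a 2-fold difference, and a difference is always a group minus HC unless another pair is named. A gene is called when limma gave an adjusted p under 0.05, with the adjustment made over all 65956 rows. The 95th percentile of 1567 rows for olfactory, vomeronasal and taste receptors, which brain endothelium is not known to use, was log2 3.10 and serves as a floor. Of the 61 genes, 57 had a mean above it, while Col4a6, Col12a1, Col10a1 and Lox did not. Background rows rich in G or C, described below, averaged 3.62 to 4.45, so a mean above the floor does not by itself show expression. The endothelial label held: the mean of 11 endothelial markers lay between 9.77 and 10.17 in the stressed and recovered animals and between 9.65 and 9.90 in HC, and 3, 2, 4 and 0 of the 11 were called higher in CSD1, CSD7, CSD14 and CSDrec.

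HC animals 1 and 2 gave arrays unlike the others. The area under the curve that separates positive from negative control rows was 0.845 and 0.830 there, against 0.891 to 0.928 on the other 17 arrays, and the rows above the floor had median differences of 0.23, 0.22, 0.21 and 0.22 for CSD1, CSD7, CSD14 and CSDrec against HC. Without those 2 arrays the same medians were 0.06, 0.06, 0.05 and 0.05. Animals 1 and 2 both lay below animals 5 and 6 for 53 of the 61 genes. The share of all rows for which this held was not counted, so it is not read as particular to these genes. Differences are also given without animals 1 and 2 for the members called and for other genes where stated. Microglial markers also moved with the groups: the mean of 8 such genes ranged from 4.77 to 6.26 in CSD1, 5.02 to 6.71 in CSD7, 5.20 to 5.60 in CSD14, 5.23 to 5.94 in CSDrec and 4.40 to 4.60 in HC, and 4, 8, 2 and 0 of them were called higher in the 4 comparisons. The mean of 6 astrocyte markers ranged from 3.90 to 4.86 in CSD1, 3.88 to 5.87 in CSD7, 3.88 to 4.08 in CSD14, 4.17 to 4.31 in CSDrec and 3.69 to 3.87 in HC. The part of these cells in the differences below was not tested.

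Collagen IV of most basement membranes is a heterotrimer of the chains of Col4a1 and Col4a2. These genes lie head to head on mouse chromosome 8, with their annotated starts close together. The region is shown because these genes had among the largest differences of the set in CSD1. They also shared their lowest animal in all 3 defeat groups. The same animals were lowest for Lama5 and Lamb2, which lie on other chromosomes. The windows below run from 250 bases before to 50 bases after each annotated start (RefSeq, GRCm38.p6), Col4a1 at chr8:11312777-11313076 on the minus strand and Col4a2 at chr8:11312555-11312854 on the plus strand. The start sites are 21 bases apart, and capitals mark the 78 bases that both windows contain, read on opposite strands. By these starts each gene begins inside the other. The capitals hold the 50 bases after each start and only part of the 250 before it.
Col4a1: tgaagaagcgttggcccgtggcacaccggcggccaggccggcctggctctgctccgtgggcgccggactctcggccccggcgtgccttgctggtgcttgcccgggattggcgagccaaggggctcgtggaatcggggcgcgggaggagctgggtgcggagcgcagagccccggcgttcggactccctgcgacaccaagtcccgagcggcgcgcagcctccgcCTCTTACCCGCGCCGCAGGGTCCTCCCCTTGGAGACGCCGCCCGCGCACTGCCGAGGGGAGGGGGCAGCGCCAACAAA
Col4a2: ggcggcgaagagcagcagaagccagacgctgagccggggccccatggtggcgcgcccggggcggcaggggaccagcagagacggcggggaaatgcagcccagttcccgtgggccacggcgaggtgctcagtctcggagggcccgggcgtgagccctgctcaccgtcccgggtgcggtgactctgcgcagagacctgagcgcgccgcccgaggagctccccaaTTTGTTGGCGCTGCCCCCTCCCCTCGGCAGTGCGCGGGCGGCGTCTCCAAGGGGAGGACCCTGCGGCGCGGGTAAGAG
The windows are 74.0% and 73.7% G or C, against a median of 52.7% over all 32851 windows of that length. On both strands, CCCTCCCC occurs once in the shared stretch, and 10.8% of all windows hold it. The letters CCAAT occur once in each window (37.4% of all windows hold them), GGGCGG once in the Col4a1 window and 3 times in the Col4a2 window (35.7%), and TATAAA in neither (13.6%). These matches describe letters and were not tested as binding sites. Among the other collagen IV genes, the starts of Col4a5 and Col4a6 lie 1343 bases apart on chromosome X.

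Every called difference of a matrix gene from HC was a rise. In CSD1, 6 of 61 genes were called higher (9.84%), against 5.84% of all rows and 12.6% of rows above the floor. CSD7 had 13 of 61 called higher (21.3%), against 9.04% of all rows and 19.2% of rows above the floor. In CSD14 it was again 13 of 61 (21.3%), against 6.87% and 14.6%. CSDrec had 0 of 61 called, against 0.0167% of all rows and 0.0364% of rows above the floor. At an unadjusted p under 0.05, 41 of the 61 were higher there, beside 17350 of all 65956 rows in either direction. Nothing was called lower in these 4 comparisons, where 0.96%, 1.96%, 1.03% and 0% of all rows were. Since 57 of the 61 lie above the floor, the share of rows above the floor is the closer background, and the counts in CSD1, CSD7 and CSD14 were near it. With HC animals 1 and 2 left out, limma called 0 members against HC, with 7, 6, 6 and 9 of the 61 higher and 1 lower in each at an unadjusted p under 0.05. Of all 65956 rows, 5732, 6130, 6013 and 4870 had such a p in either direction.

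Counted by overlap alone, 10 of 61 genes in CSD1 (16.4%) lay above every HC animal in every animal, against 9.78% of all rows, and 2 lay below (6.60% of all rows). In CSD7, 8 did so (13.1%, against 7.47% of all rows) and 0 lay below (2.91%). CSD14 had 27 above (44.3%, against 10.1%) and 1 below (2.56%), and CSDrec 19 above (31.1%, against 8.38%) and 0 below (1.48%). The overlap shares, here and in later comparisons, are over all 65956 rows, of which 30198 lie above the floor. The share among rows above the floor, the closer background, was not counted.

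Across the 5 groups together, the limma F-test called Col18a1 alone of the 61 (adjusted p = 0.045), where 366 of all rows (0.555%) and 1.17% of rows above the floor were called. Sparc (adjusted p = 0.051), Lamb2 (0.056) and Col15a1 (0.063) came next. The call of Col18a1 in the F-test was lost in most fits that left out 1 array.

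The basement membrane genes had a median difference from HC above 0 in all 4 groups. The median of the 20 differences was 0.32, 0.37, 0.29 and 0.43 for CSD1, CSD7, CSD14 and CSDrec, against 0.23, 0.22, 0.21 and 0.22 over all rows above the floor. For the 11 fibrillar collagens, all above the floor, the medians were 0.16, 0.26, 0.27 and 0.29. In basement membrane genes 4, 5, 6 and 0 of 20 were called, and in fibrillar collagens 0, 2, 2 and 0 of 11. With those HC animals left out, the basement membrane medians were 0.01, 0.06, 0.09 and 0.09 and the fibrillar medians -0.05, 0.08, 0.10 and 0.10, beside 0.06, 0.06, 0.05 and 0.05 over rows above the floor. The classes are set side by side as a description, and the difference between them was not tested.

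**Figure D1:**
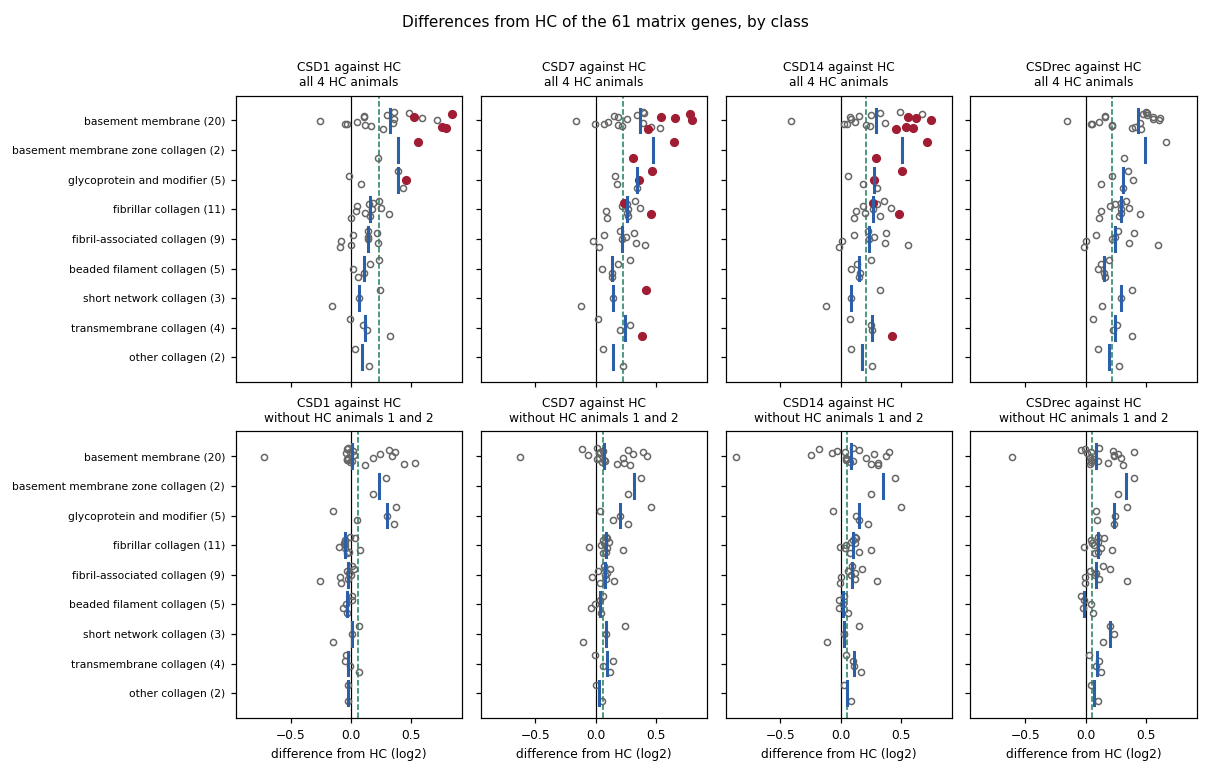
Differences from HC (log2, x axis) of the 61 genes by class (rows, with the number of genes) in CSD1, CSD7, CSD14 and CSDrec, with all 4 HC animals above and without HC animals 1 and 2 below. Filled red points were called by limma, blue bars are class medians and the dashed green line is the median of all rows above the floor; the basement membrane medians of 0.32, 0.37, 0.29 and 0.43 in the upper row became 0.01, 0.06, 0.09 and 0.09 in the lower row, where no point is filled.

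Col4a1 and Col4a2 were called higher in CSD1 and CSD14. Col4a1 read 6.90, 7.39 and 7.02 in CSD1 animals 4, 18 and 19, 6.60, 6.93, 6.85 and 7.00 in CSD7 animals 9, 16, 17 and 25, 6.89, 7.33, 6.57 and 6.86 in CSD14 animals 12 to 15, 6.77, 6.63, 6.60 and 6.79 in CSDrec animals 28 to 31, and 5.94, 5.99, 6.62 and 6.71 in HC animals 1, 2, 5 and 6. All CSD1 values exceeded every HC value, whereas the other 3 groups overlapped HC animals 5 and 6. The difference was 0.79 ± 0.19 in CSD1 (SE, 1.73-fold, adjusted p = 0.032), 0.53 ± 0.18 in CSD7 (adjusted p = 0.060), 0.60 ± 0.18 in CSD14 (1.51-fold, adjusted p = 0.048) and 0.38 ± 0.18 in CSDrec (adjusted p = 0.18). Col4a2 had the same order of animals within CSD1: 7.14, 7.66 and 7.36, with 6.80, 7.17, 7.16 and 7.24 in CSD7, 7.20, 7.51, 6.88 and 7.09 in CSD14, 7.19, 7.02, 6.89 and 7.07 in CSDrec, and 6.37, 6.45, 6.76 and 6.96 in HC. Its differences were 0.75 ± 0.16 in CSD1 (1.69-fold, adjusted p = 0.029), 0.46 ± 0.15 in CSD7 (adjusted p = 0.056), 0.54 ± 0.15 in CSD14 (1.45-fold, adjusted p = 0.040) and 0.41 ± 0.15 in CSDrec (adjusted p = 0.11). For both genes animal 18 was highest in CSD1, animal 13 highest and 14 lowest in CSD14, and animal 9 lowest in CSD7. Lamb2 had the same animals at these extremes. The CSD1 differences without HC animals 1 and 2 were 0.44 for Col4a1 (adjusted p = 0.49) and 0.53 for Col4a2 (adjusted p = 0.37). In CSD7, CSD14 and CSDrec they were 0.18, 0.25 and 0.03 for Col4a1 and 0.23, 0.31 and 0.19 for Col4a2, none called.

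The other collagen IV chains, which form the networks of kidney, lung and other specialised membranes, sat near the floor and none was called. Col4a3 ranged from 3.58 to 4.11 and Col4a4 from 3.59 to 4.09 over the 19 arrays, and their differences from HC lay between 0.12 and 0.25. Col4a5 ranged from 3.09 to 3.35 and Col4a6 from 2.80 to 3.14. Their largest absolute difference from HC was 0.07, for Col4a5 in CSD7.

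Laminins are heterotrimers of an alpha, a beta and a gamma chain, and those of the endothelium carry alpha 4 or alpha 5. Lama5, which encodes alpha 5, was called higher in CSD7 and CSD14. It read 6.85, 7.01 and 6.87 in CSD1, 6.45, 7.12, 7.04 and 7.31 in CSD7, 7.09, 6.99, 6.77 and 6.95 in CSD14, 6.93, 6.92, 6.89 and 7.02 in CSDrec, and 6.13, 5.82, 6.76 and 6.58 in HC. Every CSD1, CSD14 and CSDrec animal exceeded every HC animal, and only CSD7 animal 9 fell within the HC range. The differences were 0.59 ± 0.19 in CSD1 (SE, adjusted p = 0.066), 0.66 ± 0.18 in CSD7 (1.58-fold, adjusted p = 0.031), 0.62 ± 0.18 in CSD14 (1.54-fold, adjusted p = 0.041) and 0.62 ± 0.18 in CSDrec (adjusted p = 0.070). They were 0.24, 0.31, 0.28 and 0.27 without HC animals 1 and 2, none called.

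Lama4 had another pattern. It read 6.63, 6.66 and 6.60 in CSD1, 6.16, 6.55, 6.40 and 7.03 in CSD7, 6.53, 6.13, 6.36 and 6.41 in CSD14, 6.73, 6.71, 6.97 and 6.94 in CSDrec, and 6.07, 5.83, 6.72 and 6.49 in HC. CSD14 lay below both CSD1 and CSDrec with no overlap, and no difference from HC was called: 0.35 ± 0.19, 0.26 ± 0.18, 0.08 ± 0.18 and 0.56 ± 0.18 for CSD1, CSD7, CSD14 and CSDrec (SE, adjusted p = 0.22, 0.32, 0.78 and 0.082). Its direction in CSD7 and CSD14 rests on HC animals 1 and 2, without which the differences were -0.07 and -0.24.

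Among the beta chains, Lamb2 was called higher in all 3 defeat groups. It read 8.73, 9.19 and 8.88 in CSD1, 8.60, 9.04, 9.06 and 9.12 in CSD7, 8.98, 9.01, 8.89 and 8.99 in CSD14, 8.86, 9.02, 8.87 and 9.12 in CSDrec, and 8.27, 8.25, 8.58 and 8.56 in HC. Every stressed and recovered animal exceeded every HC animal, CSD7 animal 9 by the least. The differences were 0.52 ± 0.13 in CSD1 (SE, adjusted p = 0.034), 0.54 ± 0.12 in CSD7 (adjusted p = 0.019), 0.55 ± 0.12 in CSD14 (adjusted p = 0.019) and 0.55 ± 0.12 in CSDrec (adjusted p = 0.059), that is 1.43 to 1.47-fold. Leaving out HC animals 1 and 2 gave 0.36, 0.39, 0.40 and 0.40 with adjusted p of 0.47, 0.37, 0.36 and 0.61. Lamb1, the beta 1 chain, lay near the floor at 3.12 to 3.55 and Lamb3 at 2.96 to 3.37, and neither was called.

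Lamc1, the gamma 1 chain of most laminins, read 7.50, 7.56 and 7.56 in CSD1, 7.35, 7.39, 7.65 and 7.95 in CSD7, 7.50, 7.53, 7.37 and 7.56 in CSD14, 7.80, 7.66, 7.72 and 7.81 in CSDrec, and 7.18, 6.73, 7.60 and 7.44 in HC. Only CSDrec cleared the HC range, and the differences of 0.30 ± 0.16, 0.34 ± 0.15, 0.25 ± 0.15 and 0.51 ± 0.15 (SE) were not called (adjusted p = 0.21, 0.12, 0.27 and 0.071) and were 0.02, 0.06, -0.03 and 0.23 without HC animals 1 and 2.

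Lamc3, a gamma chain known from brain vessels, the retina and the cortical surface, had the largest difference of the set in CSD1. It read 5.88, 6.28 and 5.81 in CSD1, 5.87, 5.80, 6.19 and 5.87 in CSD7, 6.13, 5.96, 5.47 and 5.72 in CSD14, 5.75, 5.61, 5.70 and 5.44 in CSDrec, and 4.80, 4.47, 5.75 and 5.58 in HC. CSD1 and CSD7 exceeded HC with no overlap, while CSD14 and CSDrec overlapped HC animals 5 and 6. The differences were 0.83 ± 0.24 in CSD1 (SE, 1.78-fold, adjusted p = 0.046), 0.78 ± 0.22 in CSD7 (1.72-fold, adjusted p = 0.035), 0.67 ± 0.22 in CSD14 (adjusted p = 0.066) and 0.48 ± 0.22 in CSDrec (adjusted p = 0.18), against 0.32, 0.26, 0.15 and -0.04 without HC animals 1 and 2.

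Lama3 encodes the alpha 3 chain, best known from epithelial basement membranes. The gene read 5.13, 5.65 and 5.08 in CSD1, 5.05, 5.25, 5.36 and 5.82 in CSD7, 5.54, 5.52, 4.98 and 5.24 in CSD14, 4.99, 5.15, 5.17 and 5.41 in CSDrec, and 4.21, 4.19, 4.80 and 5.09 in HC. All groups overlapped HC through animal 6 alone. It was called in CSD7 (0.80 ± 0.20, SE, 1.74-fold, adjusted p = 0.026) and CSD14 (0.75 ± 0.20, 1.68-fold, adjusted p = 0.037), with 0.71 ± 0.22 in CSD1 (adjusted p = 0.057) and 0.61 ± 0.20 in CSDrec (adjusted p = 0.092). Its 4 differences without HC animals 1 and 2 were 0.34, 0.43, 0.38 and 0.24. Lama1, an early embryonic alpha chain also made at the brain surface, lay between 3.29 and 3.59 with no call.

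The crosslinking members moved less evenly. Nid1, encoding nidogen 1, which joins laminin to collagen IV, read 6.78, 6.57 and 6.69 in CSD1, 6.55, 6.60, 6.47 and 6.78 in CSD7, 6.55, 6.61, 6.31 and 6.66 in CSD14, 6.74, 6.60, 6.77 and 6.74 in CSDrec, and 5.76, 5.63, 6.73 and 6.70 in HC. HC animals 1 and 2 lay over 0.5 below all 17 other arrays, which overlapped each other. Its differences of 0.48 ± 0.21, 0.39 ± 0.19, 0.33 ± 0.19 and 0.51 ± 0.19 (SE) were not called (adjusted p = 0.13, 0.16, 0.26 and 0.12) and turned to -0.03, -0.12, -0.18 and -0.002 without those animals.

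Nid2, encoding the related nidogen 2, read 5.79, 5.70 and 5.77 in CSD1, 5.52, 5.85, 5.83 and 5.94 in CSD7, 5.83, 6.25, 5.66 and 5.79 in CSD14, 5.86, 5.78, 5.89 and 6.03 in CSDrec, and 5.20, 4.82, 5.74 and 5.81 in HC. Each group overlapped HC, and no difference was called (0.36, 0.39, 0.49 and 0.50, adjusted p = 0.21, 0.13, 0.082 and 0.099), with -0.03, 0.01, 0.11 and 0.11 without HC animals 1 and 2.

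Hspg2 encodes perlecan, the main heparan sulfate proteoglycan of vascular basement membranes. It read 7.51, 7.46 and 7.45 in CSD1, 6.95, 7.69, 7.56 and 7.86 in CSD7, 7.64, 7.66, 7.12 and 7.55 in CSD14, 7.57, 7.58, 7.46 and 7.69 in CSDrec, and 7.13, 6.80, 7.32 and 7.26 in HC. CSD1 and CSDrec exceeded HC with no overlap, but the differences of 0.35 ± 0.17, 0.39 ± 0.16, 0.37 ± 0.16 and 0.45 ± 0.16 (SE) were not called (adjusted p = 0.19, 0.11, 0.15 and 0.10), or 0.19, 0.23, 0.21 and 0.29 without HC animals 1 and 2.

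Agrn, the proteoglycan agrin, accumulates in brain capillaries as the barrier matures. It read 8.22, 8.21 and 7.97 in CSD1, 7.86, 8.41, 8.41 and 8.51 in CSD7, 8.37, 8.39, 8.23 and 8.31 in CSD14, 8.25, 8.31, 8.27 and 8.48 in CSDrec, and 7.85, 7.59, 8.05 and 7.98 in HC. All CSD14 and CSDrec values lay above all HC values. The gene was called in CSD7 (0.43 ± 0.12, SE, 1.35-fold, adjusted p = 0.037) and CSD14 (0.46 ± 0.12, 1.37-fold, adjusted p = 0.037), with 0.26 ± 0.13 in CSD1 (adjusted p = 0.20) and 0.46 ± 0.12 in CSDrec (adjusted p = 0.065). Agrn differed by 0.11, 0.28, 0.31 and 0.31 without HC animals 1 and 2.

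Collagens XV and XVIII lie at the outer face of basement membranes and carry heparan or chondroitin sulfate, and a C-terminal piece of collagen XVIII is endostatin, which restrains vessel growth. Col18a1 was called in all 3 defeat groups. It read 5.23, 5.42 and 5.21 in CSD1, 5.33, 5.48, 5.28 and 5.41 in CSD7, 5.54, 5.45, 5.44 and 5.36 in CSD14, 5.45, 5.42, 5.31 and 5.41 in CSDrec, and 4.50, 4.42, 4.95 and 5.05 in HC. The lowest stressed value, 5.21, lay above the highest HC value, 5.05. The differences were 0.56 ± 0.12 in CSD1 (SE, 1.47-fold, adjusted p = 0.029), 0.64 ± 0.11 in CSD7 (1.56-fold, adjusted p = 0.015), 0.72 ± 0.11 in CSD14 (1.64-fold, adjusted p = 0.013) and 0.67 ± 0.11 in CSDrec (1.59-fold, adjusted p = 0.051). Without HC animals 1 and 2 they were 0.29, 0.38, 0.45 and 0.40, with unadjusted p of 0.00308, 0.000212, 3.44e-05 and 0.000121, and adjusted p of 0.31, 0.22, 0.12 and 0.45. Set to 1 common distribution, the arrays gave a call of Col18a1 in CSD14 (adjusted p = 0.019) and CSDrec (0.050, under the threshold before rounding) but not in CSD1 (0.24) or CSD7 (0.053).

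Col15a1 read 4.35, 4.22 and 4.13 in CSD1, 4.25, 4.41, 4.27 and 4.34 in CSD7, 4.42, 4.29, 4.27 and 4.24 in CSD14, 4.28, 4.41, 4.27 and 4.35 in CSDrec, and 3.94, 4.00, 3.97 and 4.14 in HC. CSD7, CSD14 and CSDrec exceeded HC with no overlap. It was called in CSD7 (0.31 ± 0.07, SE, adjusted p = 0.019) and CSD14 (0.29 ± 0.07, adjusted p = 0.023), and its differences were 0.18, 0.26, 0.25 and 0.27 without HC animals 1 and 2, none called.

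**Figure D2:**
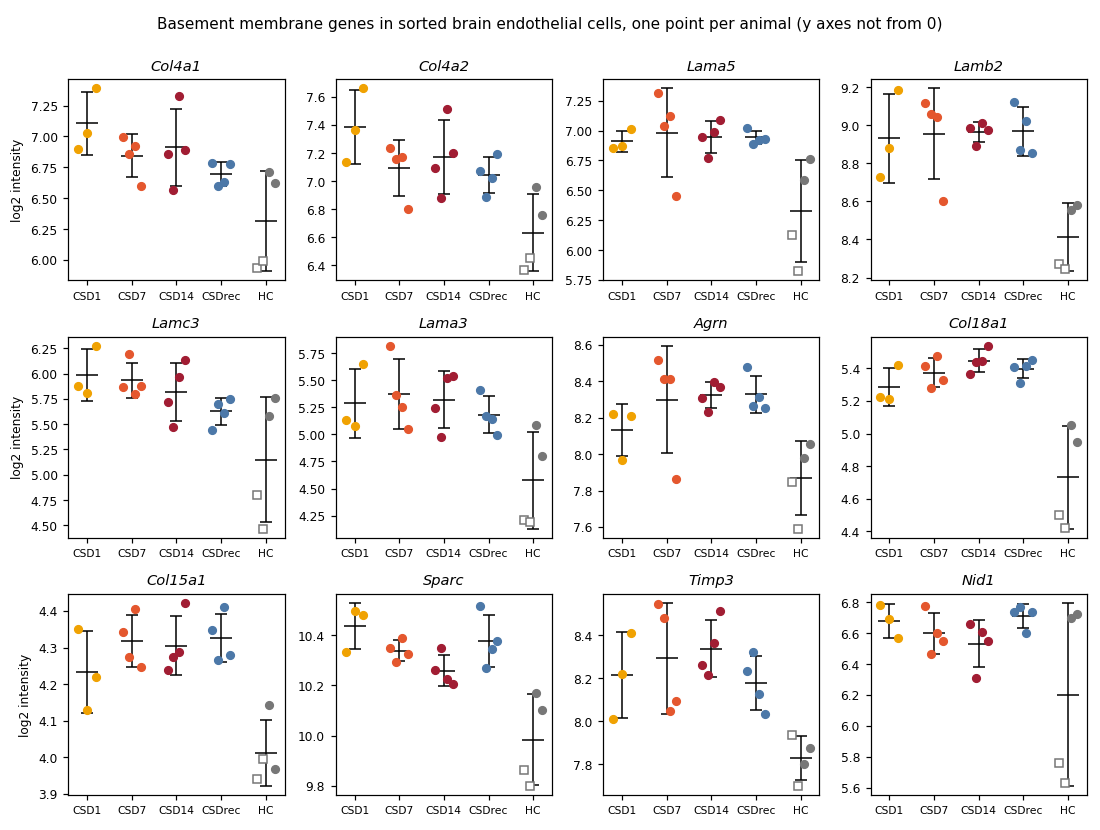
Log2 intensity (y axis, not starting at 0) of 12 genes in each animal of CSD1, CSD7, CSD14, CSDrec and HC, with the mean and SD of each group as black bars. Open squares are HC animals 1 and 2; for Nid1 they alone lie below the rest, at 5.76 and 5.63, while for Col18a1 all stressed animals lie above 5.05, the highest HC value.

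Among the 11 fibrillar collagens, Col1a1 and Col5a2 were called. Col1a1, a chain of collagen I, read 4.76, 4.51 and 4.58 in CSD1, 4.89, 4.87, 4.65 and 4.63 in CSD7, 4.83, 4.70, 4.79 and 4.84 in CSD14, 4.74, 4.88, 4.58 and 4.81 in CSDrec, and 4.10, 4.04, 4.52 and 4.56 in HC. CSD7, CSD14 and CSDrec exceeded HC with no overlap, CSDrec animal 30 by the least. The gene was called in CSD7 (0.46 ± 0.11, SE, 1.37-fold, adjusted p = 0.024) and CSD14 (0.48 ± 0.11, 1.40-fold, adjusted p = 0.022), with 0.31 ± 0.12 in CSD1 (adjusted p = 0.10) and 0.45 ± 0.11 in CSDrec (adjusted p = 0.062), and the differences were 0.08, 0.22, 0.25 and 0.21 without HC animals 1 and 2. Col5a2, a chain of collagen V, which starts collagen I fibrils, was called in CSD7 (0.24 ± 0.07, adjusted p = 0.045) and CSD14 (0.27 ± 0.07, adjusted p = 0.035). It read 3.84, 3.79 and 3.75 in CSD1, 3.85, 3.85, 3.83 and 3.86 in CSD7, 3.95, 3.80, 3.88 and 3.90 in CSD14, 3.90, 3.95, 3.82 and 3.96 in CSDrec, and 3.45, 3.49, 3.74 and 3.78 in HC. These 4 CSD7 values lay within 0.03 of each other, just above the highest HC value, and the differences were 0.04, 0.09, 0.12 and 0.15 without HC animals 1 and 2.

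The partner chains of these collagens were not called. Col1a2 read 4.00, 3.83 and 3.90 in CSD1, 4.30, 4.12, 3.91 and 3.87 in CSD7, 4.05, 3.94, 4.00 and 3.97 in CSD14, 4.09, 4.15, 3.93 and 4.17 in CSDrec, and 3.66, 3.59, 3.92 and 4.00 in HC. Col3a1, the collagen III of vessel walls, ranged from 3.53 to 3.77 in CSD1, 3.67 to 3.95 in CSD7, 3.72 to 3.84 in CSD14, 3.64 to 3.90 in CSDrec and 3.43 to 3.69 in HC. Col5a1 ranged from 3.95 to 4.22 in CSD1, 4.01 to 4.34 in CSD7, 4.17 to 4.25 in CSD14, 4.01 to 4.26 in CSDrec and 3.70 to 4.13 in HC. Col2a1, the collagen of cartilage, which brain endothelium is not known to make, went the same way: 4.24 to 4.51 in CSD1, 4.35 to 4.62 in CSD7, 4.50 to 4.53 in CSD14, 4.26 to 4.59 in CSDrec and 3.68 to 4.45 in HC. Without HC animals 1 and 2 the CSD1 differences of Col1a2, Col3a1, Col5a1 and Col2a1 were -0.05, -0.05, -0.05 and -0.06, and those in the other 3 groups ran from 0.03 to 0.13. Fibrillar collagens with a difference above 0 in CSD1 numbered 11 of 11 with all HC animals and 2 of 11 without those animals.

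Markers of fibroblasts were mostly at the floor. Of 8 measured fibroblast genes, 2 had a mean above it (Igf2 and Slc6a13), 1 under it was called (Islr in CSD7, 0.31, adjusted p = 0.044), the defining stromal genes Dcn and Lum averaged 2.60 and 2.31 over the 19 arrays, and the mean of the 8 ranged from 3.11 to 3.17 in CSD1, 3.09 to 3.35 in CSD7, 3.07 to 3.17 in CSD14, 3.21 to 3.26 in CSDrec and 2.96 to 3.17 in HC. The array also holds background rows graded by GC content, whose GC-rich members (17 to 24 G or C) averaged 3.91 to 4.11 in CSD1, 3.62 to 4.45 in CSD7, 4.18 to 4.41 in CSD14, 3.89 to 4.43 in CSDrec and 3.84 to 4.17 in HC. Within CSD7, animals 9 and 16 read 4.44 and 4.45 on them and animals 17 and 25 read 3.62 and 3.83. The same pair, 9 and 16, exceeded 17 and 25 for 10 of 11 fibrillar collagens, 5 of 5 beaded filament, 8 of 9 fibril-associated and 4 of 4 transmembrane collagens, but for 7 of 20 basement membrane genes, beside 35.9% of all rows. In HC, animals 1 and 2 read 3.84 each on the GC-rich rows and animals 5 and 6 read 4.17 and 4.09. All 11 fibrillar collagens were lower in animals 1 and 2 than in 5 and 6, and so were 18 of 20 basement membrane genes. The HC split thus did not set the fibrillar class apart, and its share of all rows was not counted. The part of this background in the fibrillar differences was not tested.

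**Figure D3:**
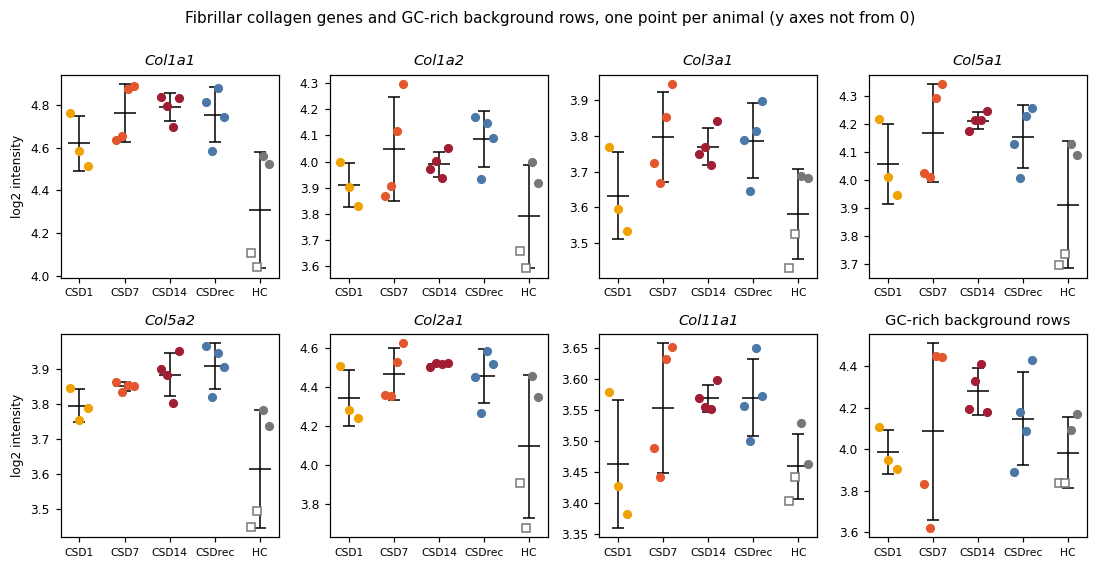
Log2 intensity (y axis, not starting at 0) of 7 fibrillar collagen genes and the mean of the GC-rich background rows in each animal of CSD1, CSD7, CSD14, CSDrec and HC, with group means and SD as black bars and HC animals 1 and 2 as open squares. In CSD7 the background separates into 3.62 and 3.83 against 4.44 and 4.45, and most collagen panels show the same split; Col5a2 does not.

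The remaining collagens gave 3 further calls, all in 2 genes. Col13a1, a transmembrane collagen of cell-matrix contacts, was called in CSD7 (0.38 ± 0.12, SE, adjusted p = 0.046) and CSD14 (0.43 ± 0.12, adjusted p = 0.037). It read 4.70, 4.34 and 4.42 in CSD1, 4.68, 4.61, 4.43 and 4.46 in CSD7, 4.66, 4.67, 4.52 and 4.51 in CSD14, 4.60, 4.58, 4.50 and 4.51 in CSDrec, and 3.93, 3.88, 4.37 and 4.47 in HC, and here too CSD7 animals 9 and 16 were the higher ones. Col8a2, a short network collagen of vessels and cornea, was called in CSD7 (0.41 ± 0.12, adjusted p = 0.041), where animals 9 and 16 read 5.07 and 5.04 and animals 17 and 25 read 4.61 and 4.46, against 4.21, 4.20, 4.53 and 4.59 in HC. The 4 differences without HC animals 1 and 2 were 0.06, 0.12, 0.17 and 0.13 for Col13a1 and 0.07, 0.24, 0.15 and 0.20 for Col8a2. The other 21 collagens outside the fibrillar and basement membrane classes were not called. Of these, the beaded filament (collagen VI) genes had medians from 0.11 to 0.15 over the 4 comparisons, the fibril-associated genes from 0.14 to 0.24 and the transmembrane genes, Col13a1 included, from 0.12 to 0.25. Col19a1 lay at the floor (2.98 to 3.26) with differences between -0.08 and 0.01, and Col25a1 between 3.28 and 3.59 with differences between -0.01 and 0.08.

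Among the glycoproteins and modifiers, Sparc and Timp3 were called. Sparc is a collagen-binding protein that endothelial cells secrete in quantity. It read 10.33, 10.48 and 10.50 in CSD1, 10.32, 10.39, 10.29 and 10.35 in CSD7, 10.20, 10.22, 10.35 and 10.26 in CSD14, 10.38, 10.34, 10.27 and 10.51 in CSDrec, and 9.86, 9.80, 10.10 and 10.17 in HC. Every stressed animal exceeded every HC animal, and the differences were 0.45 ± 0.09 in CSD1 (SE, 1.37-fold, adjusted p = 0.027), 0.35 ± 0.08 in CSD7 (1.28-fold, adjusted p = 0.020), 0.28 ± 0.08 in CSD14 (1.21-fold, adjusted p = 0.047) and 0.39 ± 0.08 in CSDrec (adjusted p = 0.059). They were 0.30, 0.20, 0.12 and 0.24 without HC animals 1 and 2, with adjusted p of 0.30, 0.40, 0.68 and 0.57.

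Timp3, a matrix-bound inhibitor of metalloproteinases that also blocks VEGF from its receptor, was the called member whose differences moved least when HC animals 1 and 2 were left out. It read 8.01, 8.41 and 8.22 in CSD1, 8.10, 8.05, 8.48 and 8.55 in CSD7, 8.51, 8.36, 8.21 and 8.26 in CSD14, 8.03, 8.13, 8.32 and 8.23 in CSDrec, and 7.94, 7.70, 7.88 and 7.80 in HC. No stressed or recovered animal was as low as the highest HC animal. The gene was called in CSD7 (0.46 ± 0.12, SE, 1.38-fold, adjusted p = 0.025) and CSD14 (0.51 ± 0.12, 1.42-fold, adjusted p = 0.022), with 0.39 ± 0.13 in CSD1 (adjusted p = 0.065) and 0.35 ± 0.12 in CSDrec (adjusted p = 0.090). The differences without those animals were 0.38, 0.45, 0.50 and 0.34, with adjusted p of 0.48, 0.31, 0.24 and 0.65.

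Fn1, encoding fibronectin, an adhesive protein of growing and injured vessels, read 10.62, 11.15 and 11.11 in CSD1, 10.56, 10.79, 11.07 and 11.08 in CSD7, 10.91, 10.82, 10.64 and 10.95 in CSD14, 10.82, 10.78, 10.88 and 10.90 in CSDrec, and 10.56, 10.36, 10.60 and 10.62 in HC. The CSD14 and CSDrec animals all lay above HC, and in CSD1 animal 4 was just above the highest HC animal. Its differences of 0.43 ± 0.13, 0.34 ± 0.12, 0.30 ± 0.12 and 0.31 ± 0.12 (SE) were not called (adjusted p = 0.058, 0.077, 0.13 and 0.13) and were 0.35, 0.27, 0.22 and 0.24 without HC animals 1 and 2. Sparcl1, a relative of Sparc, read 11.03, 10.82 and 11.33 in CSD1, 11.41, 11.02, 11.28 and 11.24 in CSD7, 11.05, 11.16, 11.16 and 11.19 in CSD14, 11.27, 11.19, 11.33 and 11.39 in CSDrec, and 10.98, 10.91, 11.16 and 11.26 in HC, with no call. Lox, the lysyl oxidase that crosslinks collagen and elastin, stayed at the floor (2.82 to 3.23).

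Lama2, the laminin alpha 2 chain that astrocytes and mural cells add to the vessel wall, was the one member whose 4 differences from HC were all below 0, none of them called. It read 3.38, 3.01 and 3.13 in CSD1, 3.84, 3.04, 3.07 and 3.11 in CSD7, 3.10, 2.97, 3.04 and 2.99 in CSD14, 3.46, 3.18, 3.30 and 3.19 in CSDrec, and 2.95, 3.0, 4.01 and 3.78 in HC. HC thus held both the highest and the lowest values of the series, and the differences were -0.26, -0.16, -0.41 and -0.15 (adjusted p = 0.46, 0.61, 0.20 and 0.66). With HC animals 1 and 2 left out they were -0.72, -0.62, -0.87 and -0.61 (adjusted p = 0.30, 0.28, 0.14 and 0.56). With array weights Lama2 was called lower in CSD1 (-0.71, adjusted p = 0.0019) and CSD14 (-0.81, adjusted p = 0.011) but not in CSD7 or CSDrec. In that fit HC animals 1, 2, 5 and 6 had weights of 0.17, 0.11, 1.83 and 1.08. CSD1 animals 4, 18 and 19 had weights of 0.51, 1.38 and 9.91, so animal 19 counted most in the CSD1 value. The same fit called 10489 and 1477 of all rows in CSD1 and CSD14, in either direction. Lama2 averaged 3.24 over the 19 arrays, near the floor of 3.10. Markers of pericytes, the mural cells of capillaries, varied over the same arrays, and all 9 were above the floor. Their mean ranged from 4.98 to 6.09 in CSD1, 5.15 to 6.46 in CSD7, 4.88 to 5.36 in CSD14, 5.50 to 6.05 in CSDrec and 4.40 to 6.78 in HC, where animals 1, 2, 5 and 6 read 4.40, 4.41, 6.78 and 6.58. The 8 arrays with the highest pericyte mean were the 8 with the highest Lama2, a description over 19 arrays that share their normalization. CSD7 animal 9, at 6.46, was also highest in smooth muscle markers (5.82, against 4.55 to 4.89 in the other CSD7 animals). Of its group it also had the highest astrocyte mean (5.87, against 3.88 to 4.53) and microglial mean (6.71, against 5.02 to 6.12). Its endothelial mean was the lowest (9.77, against 10.04 to 10.14). Among other genes, animal 9 was lowest of its group for Agrn, Lamb2, Lama5, Hspg2, Lama4, Nid2, Col4a1 and Col4a2. In sorted bulk samples, fewer cells of a type and less RNA per cell cannot be told apart. The part of pericytes, or of the other cell types named here, in Lama2 was not tested.

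**Figure D4:**
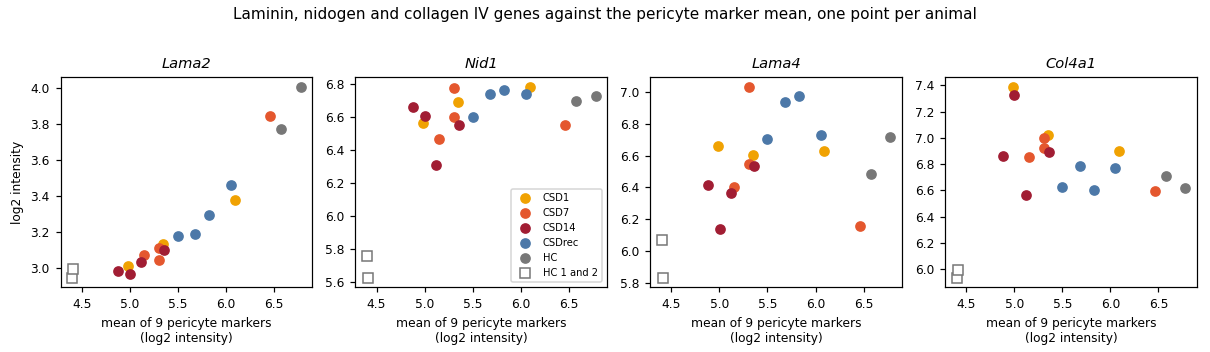
Log2 intensity of Lama2, Nid1, Lama4 and Col4a1 (y axes, not starting at 0) against the mean of 9 pericyte markers (x axis), 1 point per animal coloured by group, with HC animals 1 and 2 as open squares. Lama2 lies near 3 up to a pericyte mean of 5.36 and reaches 4.01 at 6.78; for Nid1 and Lama4 the open squares are the lowest points.

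Between the stress groups no member was called. For CSD14 against CSD1, 1 member and 1900 of all rows had an unadjusted p under 0.05, and 0% of all rows were called in either direction. It was Col14a1, a fibril-associated collagen, with 5.32, 5.61, 5.18 and 5.23 in CSD14 and 5.18, 4.75 and 4.39 in CSD1, a difference of 0.56 ± 0.19 (SE, unadjusted p = 0.0093, adjusted p = 1). The next largest rises were Agrn (0.19 ± 0.13) and Col2a1 (0.17 ± 0.14), and the largest falls were Lama4 (-0.27 ± 0.19), Col4a2 (-0.22 ± 0.16) and Col4a1 (-0.19 ± 0.19), none called. Of the 61 genes 3 were higher and 1 lower with no overlap between these groups, beside 4.65% and 3.03% of all rows.

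For CSDrec against CSD14, 3 members and 2420 of all rows had an unadjusted p under 0.05, and again 0% of all rows were called. Lama4 read 6.73, 6.71, 6.97 and 6.94 in CSDrec and 6.53, 6.13, 6.36 and 6.41 in CSD14, higher by 0.48 ± 0.18 (unadjusted p = 0.0152, adjusted p = 1). Col10a1, a growth plate collagen that lies under the floor here, differed by 0.26 ± 0.07 (unadjusted p = 0.00139, adjusted p = 1) and Col8a1 by 0.21 ± 0.07 (unadjusted p = 0.00734, adjusted p = 1). The lowest differences were those of Col4a1 (-0.21 ± 0.18), Lamc3 (-0.19 ± 0.22) and Timp3 (-0.16 ± 0.12), none called. Lamc1 (0.26 ± 0.15), Lama2 (0.26 ± 0.21), Sparcl1 (0.15 ± 0.11), Lama4 and Col10a1 were the 5 genes higher in CSDrec with no overlap (8.20% of the 61, beside 2.50% of all rows), and 0 were lower with no overlap (2.33%). The pericyte marker mean was 5.50 to 6.05 in CSDrec and 4.88 to 5.36 in CSD14, also without overlap, and its part in these 5 was not tested. The class medians between CSDrec and CSD14 were 0.005 for basement membrane genes and -0.005 for fibrillar collagens.

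Genes that act on the same matrix were counted from lists made by function with earlier results of these data known. Their shares beside those of rows are therefore a description. Of 22 measured genes for collagen processing, 8, 11, 8 and 0 were called higher in CSD1, CSD7, CSD14 and CSDrec, and none lower. These are 36.4%, 50%, 36.4% and 0% of the list, against 12.6%, 19.2%, 14.6% and 0.0364% of rows above the floor and 5.84%, 9.04%, 6.87% and 0.0167% of all rows. The median differences of the list were 0.43, 0.39, 0.31 and 0.30. Plod1, a lysyl hydroxylase of collagen, was higher by 0.58 ± 0.11, 0.61 ± 0.11 and 0.62 ± 0.11 in these 3 defeat groups (SE, adjusted p = 0.027, 0.015 and 0.013). Sec24d, a coat protein of the vesicles that carry procollagen out of the endoplasmic reticulum, rose by 0.76 ± 0.16, 0.83 ± 0.15 and 0.77 ± 0.15 (adjusted p = 0.029, 0.015 and 0.015), and Serpinh1, the collagen chaperone, by 0.60 ± 0.15, 0.49 ± 0.14 and 0.57 ± 0.14 (adjusted p = 0.035, 0.039 and 0.028). All 3 genes had smaller differences and no call without HC animals 1 and 2: Plod1 0.34, 0.38 and 0.38, Sec24d 0.40, 0.46 and 0.41, and Serpinh1 0.36, 0.24 and 0.33. P4ha2 and P4hb, subunits of prolyl hydroxylase, and Colgalt1, which adds galactose to collagen, were called in the same 3 groups, and Crtap, Bmp1, P4ha1, Pcolce2, Ppib and Sec23a in 1 or 2 of them.

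Of 13 matrix receptors 4, 6, 5 and 0 were called higher (30.8%, 46.2%, 38.5% and 0%, read against the same shares of rows), none lower. Dag1, dystroglycan, which binds laminin and agrin, rose by 0.54 ± 0.13, 0.65 ± 0.12 and 0.73 ± 0.12 (SE, adjusted p = 0.032, 0.015 and 0.013), and Itga5, the fibronectin receptor subunit, by 0.82 ± 0.22, 0.81 ± 0.20 and 0.89 ± 0.20 (adjusted p = 0.038, 0.024 and 0.021). HC animals 1 and 2 left out, Dag1 differed by 0.26, 0.37 and 0.45 and Itga5 by 0.34, 0.33 and 0.41, none called. Bcam, which binds laminin alpha 5, and Itgb4 were called in the same groups, Itga3 in CSD7 and CSD14 and Ddr1 in CSD7. Of 16 proteases and inhibitors 3, 5, 4 and 0 were called higher (18.8%, 31.2%, 25% and 0%), none lower: the inhibitors Timp1, Timp2, Timp4 and Reck and the proteases Adamts9 and Plat. Among 5 further crosslinking genes Tgm2, a transglutaminase, was called in CSD1 (0.96 ± 0.19, adjusted p = 0.027), CSD7 (0.83 ± 0.18, adjusted p = 0.018) and CSD14 (0.91 ± 0.18, adjusted p = 0.015), that is 1 of 5 (20%) in each, and differed by 0.71, 0.58 and 0.66 without HC animals 1 and 2, with no call.

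Of 23 other matrix glycoproteins 3, 10, 11 and 1 were called higher (13%, 43.5%, 47.8% and 4.35%), none lower. Fbln2, the basement membrane and elastic fibre protein fibulin 2, was the one matrix gene of these lists called in CSDrec. It read 5.60, 5.69 and 5.51 in CSD1 animals 4, 18 and 19, 5.85, 6.01, 6.00 and 6.31 in CSD7, 6.03, 6.15, 6.27 and 6.15 in CSD14, 6.30, 6.53, 6.37 and 6.52 in CSDrec, and 5.29, 4.98, 5.58 and 5.82 in HC. CSD1 lay within the HC range, and CSD7, CSD14 and CSDrec above it, with CSDrec differing from HC by 1.01 ± 0.14 (SE, adjusted p = 0.014), CSD14 by 0.73 ± 0.14 (adjusted p = 0.014) and CSD7 by 0.63 ± 0.14 (adjusted p = 0.018). Fbln5, fibulin 5 of elastic fibres, was higher by 1.24 ± 0.23 in CSD7 and by 1.24 ± 0.23 in CSD14 (adjusted p = 0.015 and 0.014). Neither was called without HC animals 1 and 2, where Fbln2 differed by 0.35 in CSD7 (adjusted p = 0.34), 0.45 in CSD14 (adjusted p = 0.20) and 0.73 in CSDrec (adjusted p = 0.20), and Fbln5 by 0.98 in both CSD7 and CSD14 (adjusted p = 0.28 and 0.24). Eln, elastin, and Npnt, nephronectin, were called in all 3 defeat groups, Vwa1 in CSD1 and CSD14, Thbs1, Ntn4, Tinagl1 and Spock2 in CSD7 and CSD14, Ltbp1 and Smoc1 in CSD7, and Emilin1 and Ltbp4 in CSD14. The lists were not tested as lists. Of all 65956 rows, limma called 0, 3, 2 and 0 higher without HC animals 1 and 2 for CSD1, CSD7, CSD14 and CSDrec.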

How the data were processed

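The authors hybridised RNA of sorted cells to arrays (Clariom D mouse by the methods, another Affymetrix type by the labels), corrected background by RMA, normalised by quantiles, summarised probe sets by median polish and deposited log2 values, using Partek Genomics Suite according to the methods and Affymetrix Expression Console according to the labels. The deposited log2 values were used with no further scaling. Of 72688 rows, 6732 control rows were left out and 65956 tested; a symbol came from the annotation of the array, and all 61 genes matched a RefSeq gene identifier.

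Each row was fitted with limma 3.58.1 in R 4.3.3 over 19 arrays in 5 groups with no covariate (14 residual and 3.6 prior degrees of freedom), with contrasts and an F-test over the 4 differences from HC, Benjamini-Hochberg adjustment over all tested rows and a threshold of 0.05. Class medians carry no test. The members, classes and lists were chosen with earlier results of these data known. Genes named with values are those past the threshold, the 3 largest rises and falls of each comparison above the floor, and a fixed set of well-known members; any other member named was picked with its values in view. The alternatives were fits of the compared groups alone, 1 common distribution, array weights, rows above the floor only, a trended and robust prior, each array left out, and HC animals 1 and 2 left out. The number of arrays limits precision, and the fit was tested on simulated data with known changes. Figures were drawn with Python 3.11.15 and matplotlib 3.10.9.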

Additional observations from a re-analysis of the deposited data

Results flagged for a closer look

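In groups of 4 animals, a value is listed here when its gap to the nearest other animal takes up more of the group's range than Dixon's 95% limit allows. The 132 such groups were those of 33 members named by call, size of difference or fixed choice. Of these groups 5 had one, and chance gives about 1 in 20 groups. Agrn read 7.86 in CSD7 animal 9, against 8.41 to 8.51 in the other CSD7 animals. Lamb2 read 8.60 in the same animal, against 9.04 to 9.12, and Lama2 read 3.84 there, against 3.04 to 3.11. Nid1 read 6.60 in CSDrec animal 29, against 6.74 to 6.77 in the other CSDrec animals. Col25a1 read 3.42 in CSD14 animal 13, against 3.48 to 3.49 in the other CSD14 animals.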

How the results depend on the processing

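No paired analysis was possible because the groups share no replicate numbers. Each of the 61 genes has 1 row, so averaging the rows of a gene was not run. The counts of members called in CSD1, CSD7 and CSD14 were 6, 13 and 13. They were 0, 0 and 0 when only the 2 compared groups were fitted or when HC animals 1 and 2 were left out. With 1 common distribution they were 0, 0 and 1 (1 in CSDrec), beside 0, 148 and 610 of all rows (14 in CSDrec). Array weights gave 10, 1 and 5, where 3 of the 10 and 1 of the 5 were lower, beside 10489, 579 and 1477 of all rows. Array weights also called 16 in CSD14 against CSD1, 14 of them higher, beside 6629 of all rows. CSD1 animal 19 had a weight of 9.91 in that fit, and no other array had more than 1.84. With only rows above the floor, 10 were called in CSD1 and 12 in CSDrec, beside 5851 and 2519 of those 30198 rows. The F-test count of 1 was 0 with 1 common distribution, 0 with a trended and robust prior, 0 without HC animals 1 and 2, 3 with rows above the floor and 15 with array weights. Leaving out 1 array gave 0 to 15 in CSD1, 0 to 34 in CSD7, 0 to 31 in CSD14, 0 to 35 in CSDrec, 0 to 16 in the F-test and 0 in CSD14 against CSD1 and CSDrec against CSD14. The counts in CSD1, CSD7 and CSD14 were 0, 0 and 0 without HC animal 1, 0, 0 and 1 without HC 2, 13, 28 and 26 without HC 5, and 15, 34 and 31 without HC 6, with 27 and 35 in CSDrec without HC 5 and without HC 6. The calls over all 65956 rows rose as well. In CSD1, CSD7, CSD14 and CSDrec they were 13971, 15551, 13028 and 10604 without HC 5. Without HC 6 they were 16626, 18478, 15905 and 13790. In CSD1 the count was 0 without animal 18 or 19. In CSD7 it was 2 without animal 16, 4 without 17 and 6 without 25, beside 1249, 1285 and 5188 of all rows. In CSD14 it was 1 without animal 12 or 13 (633 and 422 of all rows) and 4 without 14 or 15 (1282 and 2001). CSDrec had 2 without CSD1 animal 4 or CSD7 animal 9, beside 208 and 109 of all rows. The F-test call of Col18a1 was lost in most fits with 1 array left out, and omitting CSD1 animal 4, HC 5 or HC 6 gave counts of 5, 8 and 16. Why the counts change was not tested.

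The basement membrane median in CSD1, CSD7, CSD14 and CSDrec ranged over 0.17 to 0.42, 0.19 to 0.46, 0.17 to 0.40 and 0.29 to 0.51 with 1 array left out, and the fibrillar median over 0.07 to 0.24, 0.20 to 0.33, 0.21 to 0.35 and 0.21 to 0.35. Between CSDrec and CSD14 the ranges were -0.01 to 0.03 and -0.03 to 0.02. With 1 common distribution the basement membrane median was 0.0052, 0.061 and 0.14 in CSD1, CSD7 and CSDrec and the fibrillar median -0.015, 0.097 and 0.084 in CSD1, CSD14 and CSDrec. With array weights these were 0.045, 0.097 and 0.12 for basement membrane genes in CSD1, CSD7 and CSDrec, and -0.050, 0.080, 0.15 and 0.12 for fibrillar collagens in the 4 groups. Without HC animals 1 and 2 the basement membrane median was 0.012, 0.064 and 0.086 in CSD1, CSD7 and CSDrec, and the fibrillar median -0.047, 0.10 and 0.099 in CSD1, CSD14 and CSDrec.

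No called difference of a single gene kept its call in fits of the compared groups alone or without HC animals 1 and 2. Members above 0 without HC animals 1 and 2 numbered 26, 52, 49 and 52 of 61 in CSD1, CSD7, CSD14 and CSDrec, against 52, 57, 58 and 59 with all HC animals. The sign changed for 26, 7, 9 and 7 members, and 0 of these differences were called; among them were Nid2 in CSD1 (-0.025) and Lamc3 in CSDrec (-0.041). With 1 common distribution Lama4 was -0.11, -0.17 and -0.29 in CSD1, CSD7 and CSD14, Lamc1 -0.10 and -0.056 in CSD1 and CSD14, Nid1 -0.035 and -0.06 in CSD7 and CSD14, Col25a1 -0.046 in CSD7 and Col19a1 -0.030 in CSDrec. With array weights Lama4 was -0.038 and -0.23, Nid1 -0.051 and -0.089 in CSD7 and CSD14, Lamc1 -0.0019 in CSD14, Col25a1 -0.035 in CSD7 and Col19a1 -0.013 in CSDrec. Without HC animals 1 and 2, Nid1 was -0.032, -0.12, -0.18 and -0.0020 in the 4 groups, Lama4 -0.068 and -0.24 in CSD7 and CSD14, Lamc1 -0.033 in CSD14, Col25a1 -0.0095 in CSD7 and Col19a1 -0.0004 and -0.0042 in CSD14 and CSDrec. With 1 array left out, Lama2 ranged over -0.36 to 0.029 in CSD7 and -0.31 to 0.041 in CSDrec, Lama4 over -0.065 to 0.23 in CSD14, Col19a1 over -0.051 to 0.0029 in CSD7, -0.0013 to 0.022 in CSD14 and -0.027 to 0.038 in CSDrec, Col25a1 over -0.040 to 0.059 in CSD7 and Col4a5 over -0.088 to 0.0071 in CSD1.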
